A study of Mus musculus with 24 samples.

Results

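MYT1L binding in wild-type mouse cortex was compared between embryonic day E18.5 and the day of birth (P0). The comparison rested on the deposited list of MYT1L-bound sites of each stage, 14477 sites at E18.5 and 40698 at P0, which is 55175 of the 144257 sites of the whole series. A site was 1 row of a list. An E18.5 site was called kept where it overlapped any P0 site by 1 bp or more, lost where it shared none, and split where it lay over 2 or more P0 sites. A P0 site was called gained where it shared no bp with an E18.5 site. Gene by gene, all 21938 protein-coding genes of the annotation were classed in the same way, a gene being a target where a site lay within 5 kb of one of its transcription starts.

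Sites came from CUT&RUN, a method that tethers a nuclease to an antibody bound to MYT1L on chromatin and sequences the DNA it releases. By the labels all animals were C57BL/6J mice of unknown sex, the E18.5 and P0 animals carried both wild-type Myt1l alleles, and the 3 MYT1L libraries of each stage carried sequencing identifier 1, called run 1 here. In the labels the dissected area was the cortex at E18.5 but the prefrontal cortex at P0, so age and area cannot be told apart, although prefrontal cortex is the area given for both in the methods. Adult WT mice and mice heterozygous (HET) for a germline Myt1l frameshift, both aged 3 months and in run 2, served as a later point of reference. Each list was merged over the libraries of its group, each made from a dissociated mixture of cells, and gives the start and end of a site with no height or score. No value below therefore has a replicate error, no test between stages was possible, and the depth behind each list was unknown. Intervals are exact (Clopper-Pearson) 95% binomial intervals, which cover counting error within a list and treat sites or genes as independent. The lists hold no RNA, so the labelled tissue could not be checked against expressed markers, and fewer bound cells cannot be told apart from weaker binding per cell.

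MYT1L is a zinc finger transcription factor made almost exclusively by neurons, where it holds genes of other cell fates and of progenitor programmes in check and persists into the mature brain. Its DNA-binding fingers recognise the short word AAAGTT, read here on either strand (AAAGTT or AACTTT). Around birth, cortical projection neurons have largely left the cell cycle and are extending axons, forming the first synapses and acquiring their adult set of channels, while the progenitor zones turn to making glia.

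A site of each kind is shown to give the sequence that the comparison turns on. Each is a stretch of 126 bases from GRCm38 (mm10), read 5′ to 3′ with the AAAGTT nearest the middle of the site at its centre, and matches to AAAGTT on either strand are in capitals. The kept example lies on the plus strand at chr4:82508963-82509088, in an intron of Nfib, the split example on the minus strand at chr1:95666635-95666760 in an intron of St8sia4, the gained example on the minus strand at chr1:59765291-59765416 in an intron of Bmpr2, and the lost example on the minus strand at chr17:20944795-20944920 in the promoter of Ppp2r1a.
Nfib (kept): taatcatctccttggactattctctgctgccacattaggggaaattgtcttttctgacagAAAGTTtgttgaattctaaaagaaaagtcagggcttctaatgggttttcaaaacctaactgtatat
St8sia4 (split): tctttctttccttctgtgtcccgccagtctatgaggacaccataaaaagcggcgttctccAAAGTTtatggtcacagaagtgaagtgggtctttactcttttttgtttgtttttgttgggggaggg
Bmpr2 (gained): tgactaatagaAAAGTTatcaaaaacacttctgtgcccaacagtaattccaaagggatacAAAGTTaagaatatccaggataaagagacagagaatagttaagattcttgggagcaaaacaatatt
Ppp2r1a (lost): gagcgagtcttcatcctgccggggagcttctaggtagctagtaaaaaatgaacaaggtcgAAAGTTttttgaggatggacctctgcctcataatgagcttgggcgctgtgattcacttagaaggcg
The Bmpr2 stretch holds 2 matches, and each of the other stretches holds 1. The match at Bmpr2 lay 3 bp from the middle of its site, that at Nfib 15 bp, that at Ppp2r1a 125 bp and that at St8sia4 322 bp. St8sia4 has the widest site of the 4. Each match was chosen as the closest to a site middle among candidate matches outside UTRs at named genes. These candidates numbered 80 for kept, 10 for split, 6 for gained and 10 for lost, so the distances do not compare the kinds.

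Nearly all E18.5 sites were found again at birth, and most P0 sites had no E18.5 counterpart. Of the E18.5 sites, 12777 (88.3%, interval 87.7 to 88.8%) were kept and 1700 (11.7%) were lost. Of the P0 sites, 14175 (34.8%, interval 34.4 to 35.3%) overlapped an E18.5 site and 26523 (65.2%) were gained. Expressed in bp, 67.5% of the DNA covered at E18.5 was covered at P0, and 47.0% of the DNA covered at P0 had been covered at E18.5.

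A kept site mostly kept its place and became somewhat narrower. In 11251 cases (77.7% of E18.5 sites) 1 site of each list faced the other. The middles of these pairs lay a median of 58 bp apart, and the P0 site measured a median of 0.877 times the E18.5 width. It was the narrower of the pair in 66.95% of cases and lay wholly inside the E18.5 site in 41.5%. Splitting affected 1355 E18.5 sites, 10.6% of those kept. Most of these (1223) lay over 2 P0 sites, 110 over 3, 21 over 4 and 1 over 5. Split sites were wide, with a median of 964 bp against 575 bp for those kept 1 to 1, and the gaps between the P0 pieces were a median of 68 bp. The pieces still covered a median of 78.6% of the split site, close to the 82.2% covered in 1 to 1 pairs. The reverse, 1 P0 site over 2 or more E18.5 sites, occurred 107 times. When P0 sites closer than 100 bp were joined, the split share fell from 10.6% to 4.27%.

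Gained sites were short, and most lay more than 5 kb from any site of the earlier stage. Their median width was 213 bp, against 472 bp for P0 sites that were kept. A median of 37836 bp separated them from the nearest E18.5 site, and 21.9% lay within 5 kb of one. Lost E18.5 sites were a median of 9584 bp from the nearest P0 site, and 24.9% had one within 1 kb. The P0 list is the longer, so these distances do not compare gained with lost sites. Distances of randomly placed sites were not computed. Lost sites were only slightly narrower than kept ones (median 549 bp against 601 bp).

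Width separated kept from gained at P0 far more than it separated kept from lost at E18.5. Among P0 sites under 150 bp, 5.75% had an E18.5 counterpart, rising to 42.3% at 300 to 400 bp and to 97.8% at 1200 bp or more. Among E18.5 sites the kept share was 86.7% at 200 to 300 bp and 94.7% at 1200 bp or more, so even the narrower E18.5 sites were mostly found again. Exceptions were the 17 E18.5 sites under 150 bp, of which 3 were kept.

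Because the P0 list was the longer, it was also cut to its 14477 widest sites, all of at least 357 bp. At this matched length 66.7% of E18.5 sites were kept (interval 66.0 to 67.5%) and 68.9% of P0 sites had an E18.5 counterpart. The widest P0 sites thus recovered more E18.5 sites than the 33.7% that would be left, as an exact expectation, by removing P0 sites evenly. Their median width was 522 bp, against 276 bp in the full list, and wider sites can overlap more by length alone. How much of the difference this makes was not tested. Cut instead to the E18.5 total of covered bp, the P0 list held 18038 sites and 75.3% of E18.5 sites were kept. Split sites fell to 399 at matched length. Width is the only ranking that the lists allow, and how far it follows binding strength was not tested.

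**Figure D1:**
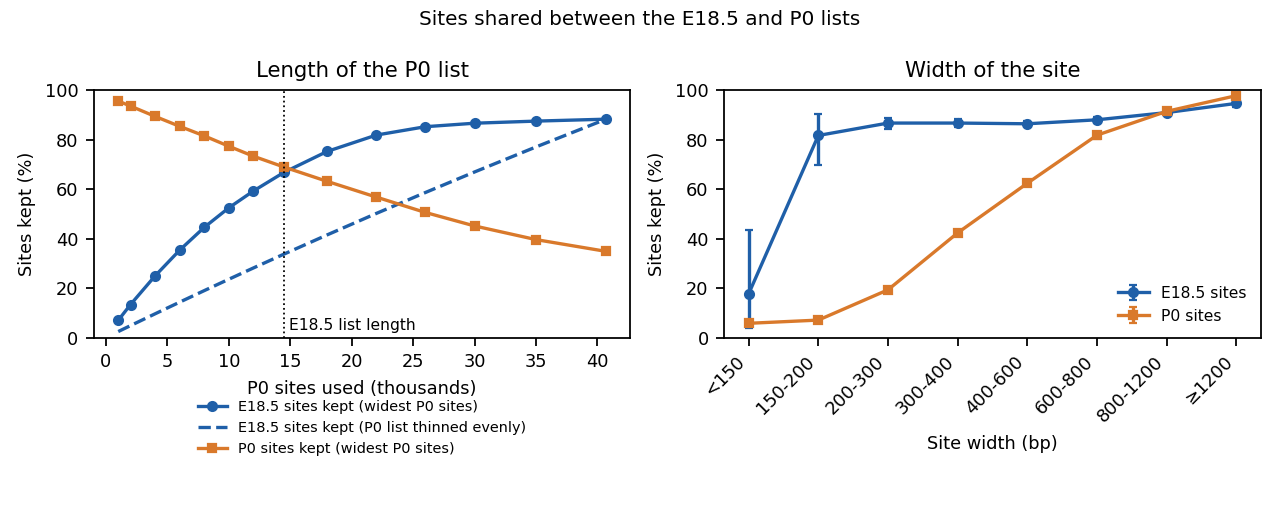
Left, share of E18.5 sites kept (blue) and of P0 sites with an E18.5 counterpart (orange) as the P0 list was shortened to its widest sites, with the dashed line giving the exact expectation for even removal; the dotted line marks the E18.5 list length, where the shares were 66.7% and 68.9%. Right, kept share by site width with exact 95% intervals, rising from 5.75% to 97.8% at P0 and changing little above 200 bp at E18.5.

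By position, kept and lost E18.5 sites were alike and gained sites stood apart. A promoter site had its middle between 1 kb upstream and 100 bp downstream of a transcription start. Promoters held 34.2% of kept E18.5 sites (interval 33.4 to 35.1%), 35.6% of lost ones (33.3 to 37.9%) and 38.9% of split ones (36.3 to 41.6%). Of gained P0 sites 17.0% were at promoters (16.5 to 17.5%). Among gained sites that belonged to the widest 14477 the promoter share was 26.8%, still below the 35.4% of kept P0 sites in the same cut list. Seen from the other side, 51.7% of P0 promoter sites had an E18.5 counterpart, against 28.9% of intronic and 30.8% of intergenic P0 sites. Promoter and intronic E18.5 sites were kept at nearly the same rate (87.9% and 89.3%).

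**Figure D2:**
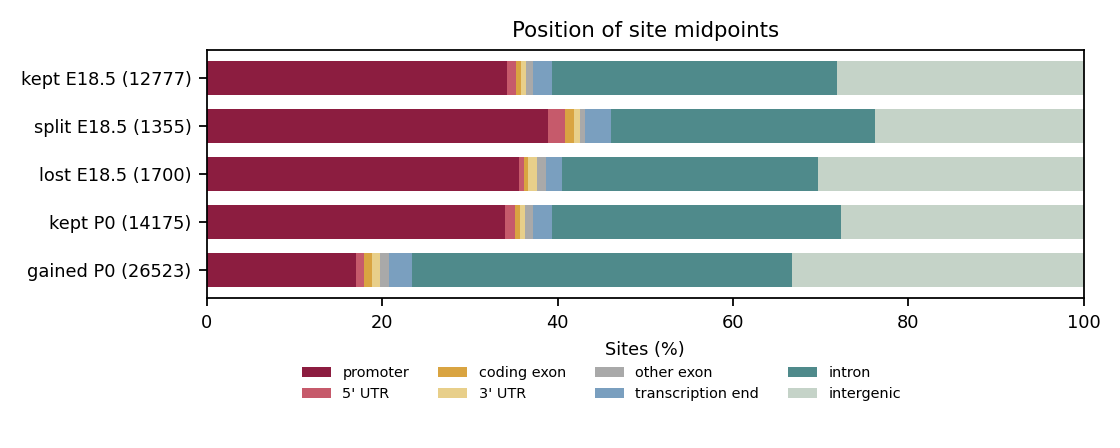
Annotation of site middles for E18.5 and P0 sites of each kind, with the number of sites in parentheses and each bar adding to 100%. Promoters (dark red) take 34.2% of kept E18.5 sites, 35.6% of lost E18.5 sites and 17.0% of gained P0 sites.

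The MYT1L word AAAGTT was more frequent at sites outside promoters than in flanks 2 kb away, in kept, lost and gained sites alike. It lay within 75 bp of the middle of 18.7% of kept non-promoter E18.5 sites against 11.5% of their flanks, and of 18.6% of lost ones against 11.3%. Gained non-promoter P0 sites held it in 15.5% (interval 15.0 to 16.0%), against 11.2% of flanks. With windows of 250 bp on each side, over all lost sites, the excess over flanks was 1.5 percentage points with an approximate (normal) interval from -1.25 to 4.25, so for lost sites it was not beyond counting error there. Over the whole genome, 12.1% of windows of the same 151 bp hold the word. At promoters it was less frequent in kept, lost and gained sites than in their flanks (8.92% against 11.3% at kept E18.5 sites), though not in the gained promoter sites within 5 kb of an E18.5 site (12.3% against 11.4%), and the base composition of sites and flanks was not matched. Gained sites that survived the cut to the widest had AAAGTT in 12.5% outside promoters (11.3 to 13.6%), against 11.8% of their flanks, whereas kept P0 sites of the same cut list had it in 16.5% (15.6 to 17.4%). Outside promoters, split sites had it in 14.4% at their middle (12.1 to 17.0%), against 12.6% of flanks (11.1 to 14.3%), with overlapping intervals. The P0 pieces within them had it in 16.6% (14.9 to 18.3%), against 13.2% of flanks (12.1 to 14.4%).

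Some words of other factors differed between classes beyond their intervals, and others did not. TTGGCA (reverse complement TGCCAA), the core bound by nuclear factor I proteins, lay in 19.7% of lost non-promoter sites (17.4 to 22.2%) and 17.0% of kept ones (16.2 to 17.8%), whose intervals overlap. It lay in 12.8% of gained ones (12.3 to 13.2%), against 7.48% of genome windows. CAGATG (reverse complement CATCTG), an E-box read by proneural factors such as Neurog2, lay in 23.3% of lost sites (20.8 to 25.9%), 17.4% of kept ones (16.6 to 18.2%) and 14.1% of gained ones, against 11.5% of genome windows. Gained sites within 5 kb of an E18.5 site stood close to the genome for this word, with 10.7%. At promoters, TGACGT (reverse complement ACGTCA), the core of the cyclic AMP response element, lay in 6.20% of kept, 7.77% of lost and 5.66% of gained sites, with overlapping intervals, against 1.09% of genome windows. Of the other 2 words searched, the palindrome TAATTA of homeodomain proteins lay in 9.08% of kept, 8.68% of lost and 7.29% of gained non-promoter sites against 5.47% of genome windows, and TGACTC (reverse complement GAGTCA), a core of AP-1 factors, in 7.29%, 7.21% and 6.77% against 7.50%. A match of letters is a description and does not show that the factor was bound.

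Among genes, 6587 (30% of all protein-coding genes) were targets at E18.5 and 10080 (45.9%) at P0. Targets at both stages numbered 6157 (28.1%), P0 only 3923 (17.9%) and E18.5 only 430 (1.96%). Seen from the first stage, 6.53% of E18.5 targets were lost and 25.6% of the genes without an E18.5 site gained one. With the P0 list at matched length, 27.4% of genes were targets at P0. The kept class then held 22.1% of genes, the gained class 1159 genes (5.28%) and the lost class 1729 (7.88%), so that the balance of gain over loss turned around. Removing P0 sites evenly would leave, as an exact expectation, 1723 gained and 3344 lost genes.

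Kept target genes mostly rested on the same DNA. In 5883 of the 6157 kept genes (95.6%) at least 1 site of each list overlapped, and in 274 both stages had a site near a start without sharing a bp. The number of sites rose in 2950 kept genes (47.9%), fell in 110 and was equal in 3097. The covered bp did not follow, with a median P0 to E18.5 ratio of 0.987 (quartiles 0.747 and 1.34). P0 sites also lay closer together, with a gap under 500 bp to the next site in 14.45%, against 3.96% at E18.5. Close sites were not joined for the counts per gene, so a higher number of sites does not by itself show added binding. Gained genes rested on little DNA. A single P0 site was the basis of 2747 of them (70.0%), and their median covered length was 315 bp. A P0 site within 1 kb of a start was present in 80.3% of gained genes, and 7.77% had an E18.5 site 5 to 10 kb from a start. Lost genes rested on 1 E18.5 site in 418 of 430 cases, of a width (median 644 bp covered) near that of kept genes (699 bp). CpG-rich promoters, with an observed to expected CpG ratio of at least 0.6 and at least 55% GC, made up 61.6% of kept, 54.5% of gained, 68.4% of lost and 38.3% of all genes.

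The genes most heavily covered at both stages included transcription factors of cortical neurons and Myt1l itself. Tcf4, a helix-loop-helix partner of proneural factors, had 13 sites covering 19286 bp at E18.5 and 27 covering 19165 bp at P0. Nfib, a nuclear factor I protein of deep-layer neurons and glia, had 5 sites over 8162 bp and then 6 over 8669 bp. Its relative Nfia had 6 sites over 8052 bp and then 10 over 8329 bp. At all 3 genes the covered length barely moved while the number of sites rose. Ranking by the smaller of the E18.5 and P0 lengths favours genes whose lengths are alike.

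Myt1l itself came next, with 3 E18.5 sites over 6965 bp and 13 P0 sites over 7211 bp. The large E18.5 site over its 5′ end, 4809 bp wide, lay over 4 P0 sites whose gaps ran from 25 to 1378 bp. The other kept genes named by the same rule were Mllt10, a partner of a histone methyltransferase, Bcl11a and Zbtb18, zinc finger factors of projection neurons, Chd2, a chromatin remodeller, Zfp608, and Baz2b, a bromodomain protein. Bcl11a went from 5 sites over 6017 bp to 10 over 5220 bp, and Chd2 from 2 over 4945 bp to 7 over 5845 bp. All 10 had more sites at P0 than at E18.5, beside 47.9% of all kept genes. All 10 also stayed kept at matched list length, as did 4858 of all 6157 kept genes. The 10 were ranked by the smaller of their E18.5 and P0 covered bp, a rule that favours staying kept.

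Of the genes whose only E18.5 site was split, Fmc1, a mitochondrial assembly factor, was the most divided, its 2960 bp site lying over 5 P0 sites with gaps of 38 to 83 bp. St8sia4, a polysialyltransferase that modifies neural cell adhesion molecules, had 1 E18.5 site of 3839 bp and 4 P0 sites that together covered 4117 bp. Its pieces were separated by only 1, 21 and 36 bp. Elf1 and Wbp4 shared a 2451 bp site at their common start region that lay over 4 P0 sites. Nr3c1, the glucocorticoid receptor, Tial1, an RNA-binding protein, and Zfp113 each had 4 pieces, and Zfp608, Nrep and Ccng2 each had 3. At Zfp608 the largest gap was 1771 bp, so that much of the 4526 bp site held no P0 site.

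Genes gained at P0 with the most DNA in wide sites began with Bmpr2, the type II receptor for bone morphogenetic proteins, which had 6 P0 sites over 2361 bp around its start. Tenm2, a teneurin that links synaptic membranes, had 3 sites over 2083 bp, the widest of them (1237 bp) at its promoter. Srsf3, a splicing factor, had 3 sites over 1866 bp. Hivep2, a zinc finger factor, had 4 sites over 2223 bp. Mmp16, a membrane metalloproteinase, had 3 over 1892 bp, and Slco5a1, Rusc2 and Zfp24 had between 2 and 3 sites each. Efcab7 and Itgb3bp shared 1 site of 1560 bp. None of the 10 had an E18.5 site within 5 kb of a start.

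The lost genes named here were ranked by their E18.5 DNA, so their wide sites follow from that rule. Over all lost sites the median width was below the kept median of 601 bp. Zfp865, a zinc finger protein, had 2 E18.5 sites over 2411 bp, the wider of which met a P0 site that itself lay beyond 5 kb from a start. Casc1 and Etfrf1, a pair of genes with a shared start region, shared a site of 1956 bp, and Pdia4, a protein disulphide isomerase of the endoplasmic reticulum, had 1 site of 1946 bp. Ppp2r1a, the scaffold subunit of protein phosphatase 2A, had a site of 1943 bp over its start, and its regulatory subunits Ppp2r5a and Ppp2r3d had 1755 and 1765 bp. Trim41, a ubiquitin ligase, had 1927 bp, Hjurp, the chaperone of the centromeric histone, 1776 bp, and Cep57l1 1768 bp. None of these had a P0 site within 5 kb of a start. In the adult WT list, 9 of the 10 were targets again, against 8 of the 10 kept, 6 of the 10 split and 1 of the 10 gained genes named here, beside 20.1% of all genes. In the adult HET list the counts were 5 lost, 6 kept, 2 split and 0 gained genes, beside 23.4% of all genes. With 10 genes of each kind, these counts are too few to order lost and kept genes.

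**Figure D3:**
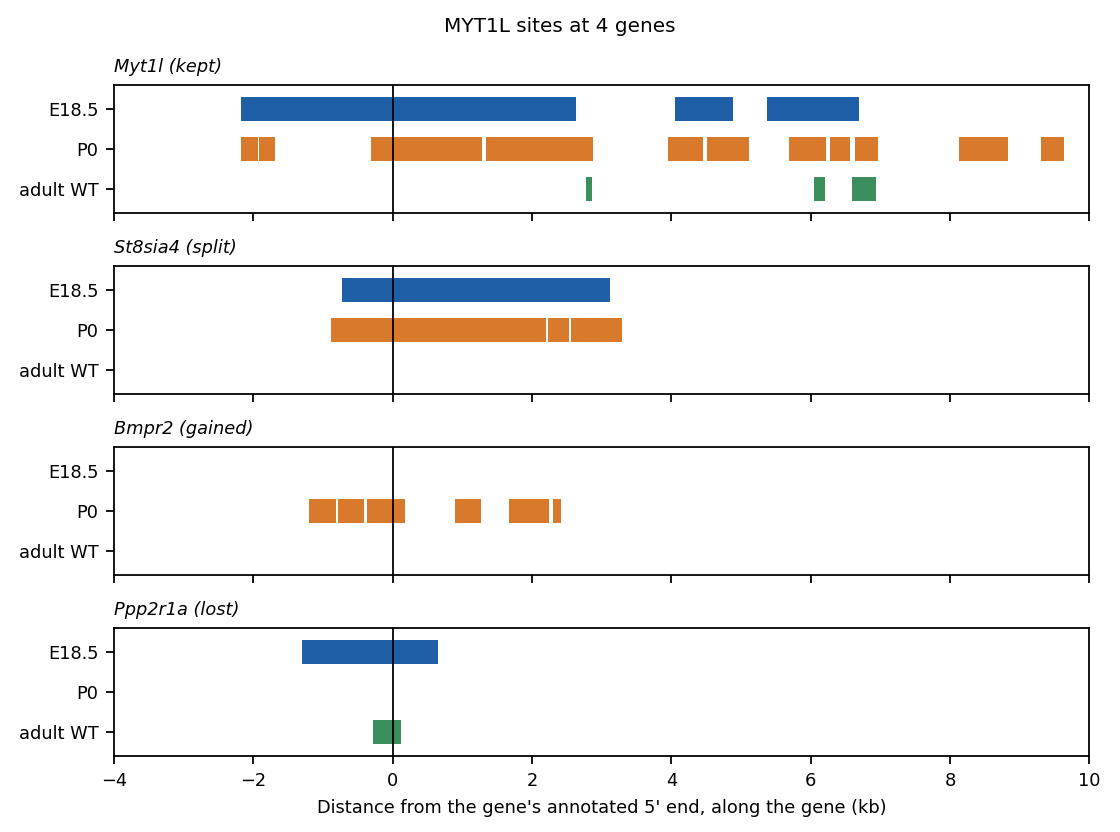
MYT1L sites of the E18.5 (blue), P0 (orange) and adult WT (green) lists at 4 genes, by distance in kb from the annotated 5′ end along the gene (vertical line). At Myt1l the 4809 bp E18.5 site faces 4 P0 sites, at St8sia4 the 4 P0 pieces nearly touch (gaps of 1 to 36 bp), Bmpr2 has P0 sites only, and Ppp2r1a has an E18.5 and an adult site but none at P0.

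Among groups of genes, most listed transcription factors of cortical layers were targets already at E18.5. Of 35 such genes 30 were targets at E18.5 (85.7%, interval 69.7 to 95.2%, against 30% of all genes) and all 30 were kept. The list includes Tcf4, Nfib, Nfia, Myt1l, Bcl11a and Zbtb18, named above for their coverage. It was chosen with earlier results of these data known, so this share may partly follow from the choice of genes. Zeb2, a regulator of neuronal and glial fate, went from 2 sites over 1709 bp to 13 over 5878 bp, and Tbr1, a deep-layer factor, from 2 over 1434 bp to 7 over 4168 bp. Pou3f3 went the other way, from 3 sites over 6821 bp to 2 over 3660 bp. The 2 gained members were Lmo3, a LIM-domain protein (3 sites, 1160 bp), and Fezf2, a factor of subcortical projection neurons (1 site, 136 bp). Of 30 genes of dorsal forebrain progenitors, 15 were kept and 9 gained, beside 28.1% and 17.9% of all genes. Sox2, the stem cell factor, had 6 sites over 3696 bp and then 8 over 4987 bp, and Pax6 had 4 over 3673 bp and then 8 over 3989 bp. Prom1, Btg2 and Mki67 were among the gained genes, and of all 9 only Prom1 (1215 bp) stayed a target at matched length. At that length 2 of the kept progenitor genes were lost.

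Genes of neuronal excitability, synapses and axons without an E18.5 site gained one at rates above that of all genes, as did several housekeeping lists. Beside a background of 25.6%, the share of genes without an E18.5 site that gained one was 46.2% for sodium and calcium channels (12 of 26), 51.4% for potassium and HCN channels (19 of 37) and 47.6% for glutamate receptors (10 of 21). It was 45.5% for synaptic vesicle release (15 of 33), 45.7% for synaptic adhesion (16 of 35) and 48.7% for axon guidance (19 of 39). The lower bounds of these 6 shares lay between 25.7% and 34.4%. The background includes 1129 olfactory receptor genes, of which 1.59% gained a site. CpG-rich promoters made up 66.7% of axon guidance, 59.6% of potassium and HCN channel and 55.8% of vesicle release genes. They made up 38.5% of glutamate receptor, 32.8% of synaptic adhesion and 32.35% of sodium and calcium channel genes, against 38.3% of all genes. The part played by promoter type was not tested. The highest share among neuronal lists was 77.8% (14 of 18, interval 52.4 to 93.6%) for the neuronal cytoskeleton and axon initial segment, and that for GABA and glycine receptors, 28.6% (6 of 21), was near the background. Lists of broadly expressed genes had gained shares of the same order, with 70.6% for chromatin regulators, 68.8% for ribosomal proteins and 57.6% for oxidative phosphorylation. Among kept genes, some of these lists held more DNA at P0 and others did not. Covered bp was higher at P0 in 28 of 32 kept axon guidance genes (87.5%, interval 71.01 to 96.5%), 25 of 32 synaptic adhesion genes and 14 of 17 genes of vesicle release, against 48.5% of all kept genes. It was higher in 12 of 24 kept genes of the neuronal cytoskeleton, 4 of 8 of sodium and calcium channels and 3 of 8 of potassium and HCN channels.

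Single genes show what these counts consist of. Gria4, an AMPA receptor subunit, had no E18.5 site and 6 P0 sites over 1973 bp, and Grm8, a metabotropic receptor, 4 over 1302 bp. Gria2, the subunit that sets calcium permeability, was kept with 3 sites over 2501 bp and 7 over 2841 bp. Grin2b and Grin2a, NMDA receptor subunits, were gained on 460 and 388 bp. Unc13a, a vesicle priming factor, gained 3 sites over 1438 bp, and Sv2c, a synaptic vesicle protein, 2 over 1065 bp. Slc17a6, a vesicular glutamate transporter, was kept with 2 sites over 2797 bp and then 6 over 2922 bp. Among adhesion genes Nlgn1, a postsynaptic neuroligin, was gained with 3 sites over 1114 bp. Kcnk2, a leak channel, gained 4 sites over 1148 bp. Epha3, an ephrin receptor, went from 1 site over 1025 bp to 7 over 3302 bp. Map2, the dendritic microtubule protein, went from 2 sites over 1229 bp to 8 over 4247 bp, and Stmn2, a tubulin-binding protein of growing axons, was gained with 2 over 1345 bp. Dcx, which stabilises microtubules in migrating neurons, was gained on 1 site of 178 bp. Each of these lists lost at most 2 members. They were Grik5, a kainate receptor subunit (567 bp at E18.5), Kcnn1, a calcium-activated potassium channel (1078 bp), Hcn4, a pacemaker channel (488 bp), Rab3a and Ppfia3 of the presynaptic terminal (472 and 902 bp), the semaphorin receptor Plxnb1 (453 bp) and Camsap1, which binds microtubule minus ends (755 bp).

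Much of that gain lay in narrow sites. At matched list length the potassium and HCN channel list held 8 gained and 3 lost genes, vesicle release 8 and 6, synaptic adhesion 6 and 3, glutamate receptors 3 and 1, and sodium and calcium channels 2 and 0. Axon guidance held 4 gained and 5 lost, and the neuronal cytoskeleton 2 gained and 6 lost. These stand beside 5.28% gained and 7.88% lost among all genes. Gained members outnumbered lost ones under both list lengths in the lists for channels, transmitter receptors, vesicle release, synaptic adhesion, BMP and TGF-beta signalling, the MYT family, astrocytes, microglia, endothelial and mural cells, and blood lineages.

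Of the 3 signalling pathways, BMP and TGF-beta had the most genes gained in wide sites. In this pathway, ligands bind type I and II receptors that phosphorylate Smad proteins, whose targets include the Id genes. Of 50 genes 12 were kept, 15 gained and 0 lost, beside 28.1%, 17.9% and 1.96% of all genes. At matched length 12 were still gained and 1 was lost, beside 5.28% and 7.88% of all genes. The gained receptors were Bmpr2 (2361 bp), Tgfbr1 (4 sites, 1208 bp), Acvr2a (901 bp) and Bmpr1b (359 bp), the gained ligands Tgfb3 (4 sites, 1132 bp), Inhba, Inhbb, and Bmp2 (232 bp), and the gained Smads Smad1 (4 sites, 1430 bp), Smad3 and Smad2. The antagonist Nog was gained with 2 sites over 581 bp. Kept members grew, with more covered bp at P0 in 11 of 12. Id2 went from 4 sites over 1953 bp to 7 over 4553 bp, and the inhibitory Smad7 from 1 site over 270 bp to 6 over 2291 bp. Gdf11 was the exception, with 1205 bp and then 846 bp.

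In the Notch and Wnt pathways, of 41 and 73 genes, 3 and 4 were gained and 5 and 5 lost at matched length. Among all genes 5.28% were gained and 7.88% lost, and counts this small do not set the Notch and Wnt lists apart from them. Notch signalling runs from Delta and Jagged ligands through cleavage of the receptor to the Hes and Hey repressors. Of 41 Notch genes 20 were kept, 7 gained and 3 lost, beside 28.1%, 17.9% and 1.96% of all genes. The kept genes included the ligand Dll1 (525 bp, then 1451 bp), the DNA-binding Rbpj (2216 bp, then 2304 bp) and the target Hes1 (1058 bp, then 985 bp). Jag2, Dner, Dtx3 and Notch3 were gained on 386 to 564 bp, and Hes6, Numbl and Psen2 were lost. Wnt signalling runs from Wnt ligands through Frizzled receptors to beta-catenin. Of 73 Wnt genes 23 were kept, 17 gained and 1, Ctnnbip1, lost. Apc (5 sites, 1439 bp), Apc2 and Ctnnb1 (4 sites, 1294 bp), the scaffold and effector of the pathway, were gained, and the receptor Fzd2 was kept with 2693 and 2286 bp. The share gained of genes without an E18.5 site was 38.9% and 34.7% in the Notch and Wnt lists and 39.5% (interval 24.0 to 56.6%) in the BMP and TGF-beta list, beside 25.6% of all genes, so on this measure the 3 pathways were close.

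Housekeeping genes were targets at high rates at E18.5. At matched list length more of them were lost than gained, as among all genes (1729 lost and 1159 gained). Of 83 cytosolic ribosomal protein genes 67 were targets at E18.5 (80.7%) and 75 at P0 (90.4%). With the P0 list at matched length, 19 of them were lost and 3 gained. Rpl7a, Rps19 and Rps10 were lost even from the full list. Of 82 genes of oxidative phosphorylation 46 were kept, 19 gained and 3 lost (Ndufs1, Atp5g1 and Ndufs8), and at matched length 8 were gained and 13 lost. Of 77 histone genes 69 were kept and 1, H2afy2, which encodes a variant histone, was gained. Covered bp was higher at P0 in only 12 of the 69 kept histone genes (17.4%, interval 9.32 to 28.4%), with a median ratio of 0.769. These genes are clustered and share sites, 62 at E18.5 and 82 at P0 in all, and near-identical copies could share reads.

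Chromatin regulators and immediate early genes were targets more often than all genes at both stages. The shares were 63.8% and 62.5% at E18.5, against 30% of all genes, and 86.2% and 80% at P0, against 45.9%. Of 94 chromatin regulators 57 were kept, 24 gained and 3 lost. Smarca2, a SWI/SNF ATPase, kept 4343 and 4782 bp, while Kmt2c and Chd7, a histone methyltransferase and a remodeller, were gained with 1742 and 1426 bp, and Chd1, Actl6a and Mbd5 were lost. Of 40 immediate early genes 24 were kept and 8 gained. Nrn1, a secreted protein of synapse maturation, went from 3 sites over 2566 bp to 9 over 5293 bp, Jun held 3085 and 3111 bp, and Fos and Egr2 were gained with 1028 and 771 bp. Dusp5 was lost. In the circadian clock list 14 of 24 genes were kept, Rora and Clock were among 4 gained, and Per2 was lost. Among all genes 28.1% were kept, 17.9% gained and 1.96% lost. In the MYT family, St18 was kept (836 and 861 bp) beside Myt1l, and Myt1 was gained with 2 sites over 1220 bp.

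Most lists of other cells and tissues held fewer targets than the 30% and 45.9% of all genes at E18.5 and P0. Of 36 epithelial genes 2 were targets at E18.5 and 4 at P0, of 44 heart and skeletal muscle genes 3 and 3, of 33 liver and pancreas genes 3 and 7, and of 38 genes of blood lineages 1 and 8. In the fibroblast, mesenchyme and skeleton list the targets went from 3 to 13 of 35 (37.1%, interval 21.5 to 55.1%, which includes the share of all genes), with 10 gained, of which 1, Snai2 (365 bp), was a target at matched length. For Hox genes the counts were 0 of 39 at E18.5 (interval up to 9.025%) and 2 at P0, Hoxc10 and Hoxd13, each on 1 narrow site. Of 1134 olfactory receptor genes 5 were targets at E18.5 and 23 at P0 (2.03%), and 22.2% of the 18 gained had the site within 1 kb of a start, against 80.3% of all gained genes. Brain cells other than projection neurons gave mixed counts, to be set beside 28.1% kept and 17.9% gained among all genes. Of 27 interneuron genes 6 were kept and 8 gained, among them Gad1 (3 sites, 733 bp) and Dlx1 (453 bp). Of 22 astrocyte genes 5 were kept, including Sox9 (3043 and 4051 bp) and Glul (777 and 2450 bp), and 6 gained. Oligodendrocyte, microglia, and endothelial and mural lists had 3, 2 and 2 targets at E18.5 and 3, 4 and 5 at P0. Mog, a myelin protein gene, was lost, with 1015 bp at E18.5.

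**Figure D4:**
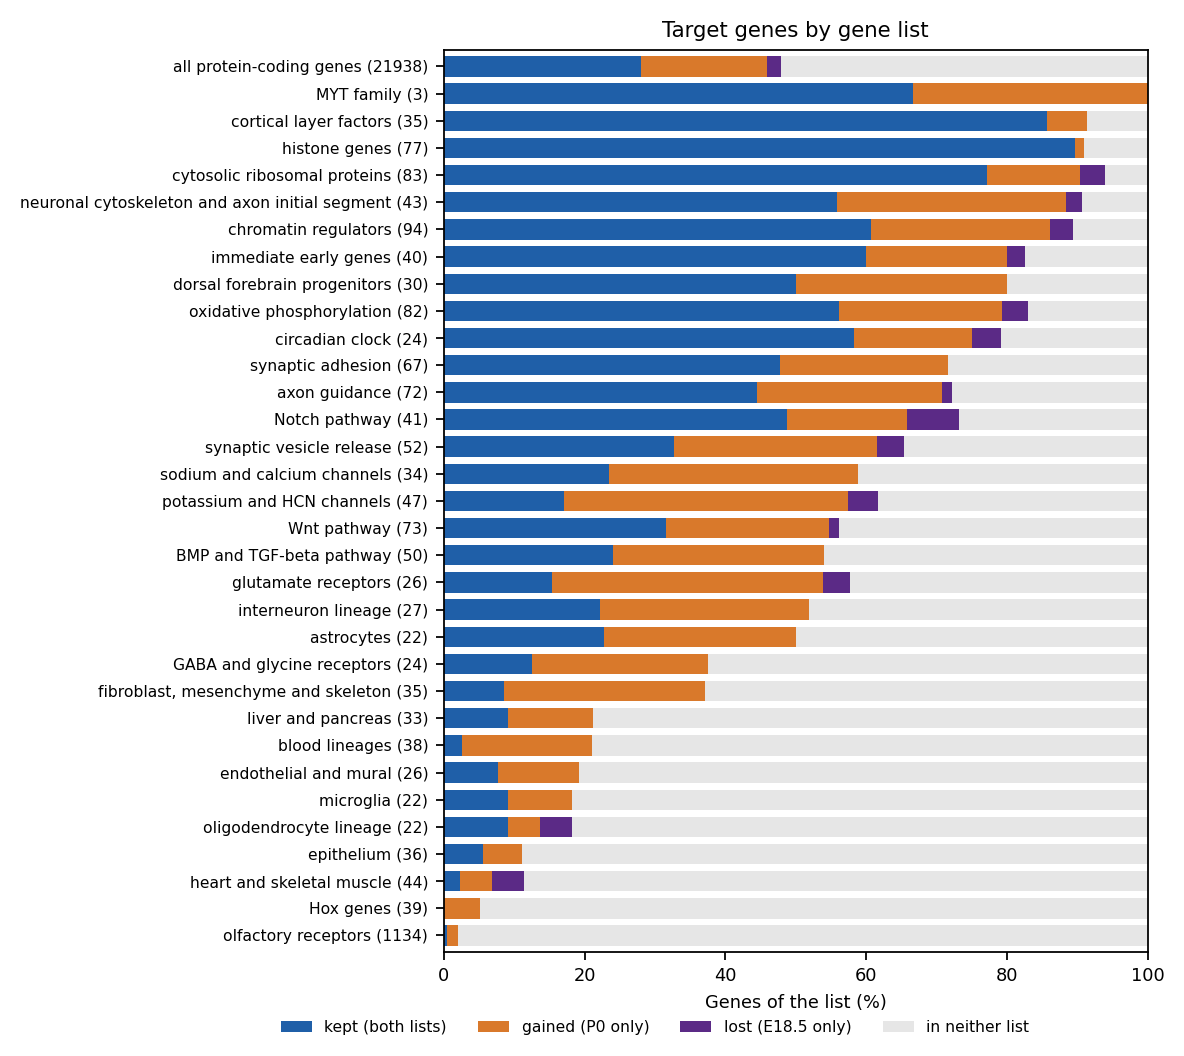
Share of each gene list that was kept (blue), gained (orange), lost (purple) or a target in neither list (grey), with the number of genes in parentheses and all protein-coding genes on top. Cortical layer factors were mostly kept (30 of 35), channels and glutamate receptors had more gained than kept members, and Hox and olfactory receptor genes rarely targets.

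At promoters, sites lost at birth overlapped adult WT sites at a higher share than sites that were kept, and away from promoters they did not. The adult lists played no part in defining the classes. Of kept E18.5 sites 17.6% overlapped an adult WT site (interval 17.0 to 18.3%), of lost ones 24.2% (22.2 to 26.4%) and of gained P0 sites 3.93% (3.70 to 4.17%). At promoters the shares were 43.5% of lost sites (39.5 to 47.5%) and 24.9% of kept ones (23.6 to 26.2%). Elsewhere they were 13.6% and 13.9%. Lost and kept promoter sites had median widths of 617 and 614 bp, and among sites of 824 bp or more 68.1% of the lost (111 of 163, interval 60.4 to 75.2%) and 38.1% of the kept (35.4 to 40.9%) recurred. Among promoter sites under 439 bp the shares were 13.7% and 14.2%, which did not differ beyond counting error.

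In the adult HET list the same promoter shares were 20.7% (17.5 to 24.1%) of lost and 14.7% (13.6 to 15.7%) of kept sites. Among promoter sites of 824 bp or more they were 30.1% (23.1 to 37.7%) and 24.1% (21.7 to 26.6%), with overlapping intervals, so the wide gap seen with adult WT was not matched there. Away from promoters fewer lost than kept sites recurred in the HET list, 5.21% (3.97 to 6.69%) against 7.76% (7.20 to 8.35%). Adult WT targets made up 47.2% of lost, 38.2% of kept, 19.0% of gained and 20.1% of all genes. For adult HET targets the shares were 36.3% of lost (31.7 to 41.0%) and 33.3% of kept genes (32.1 to 34.5%), whose intervals overlap, 22.6% of gained and 23.4% of all genes. The adult libraries belonged to run 2 and the younger ones to run 1, so age and run cannot be told apart in these shares, and the part played by the P0 libraries themselves was not tested.

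**Figure D5:**
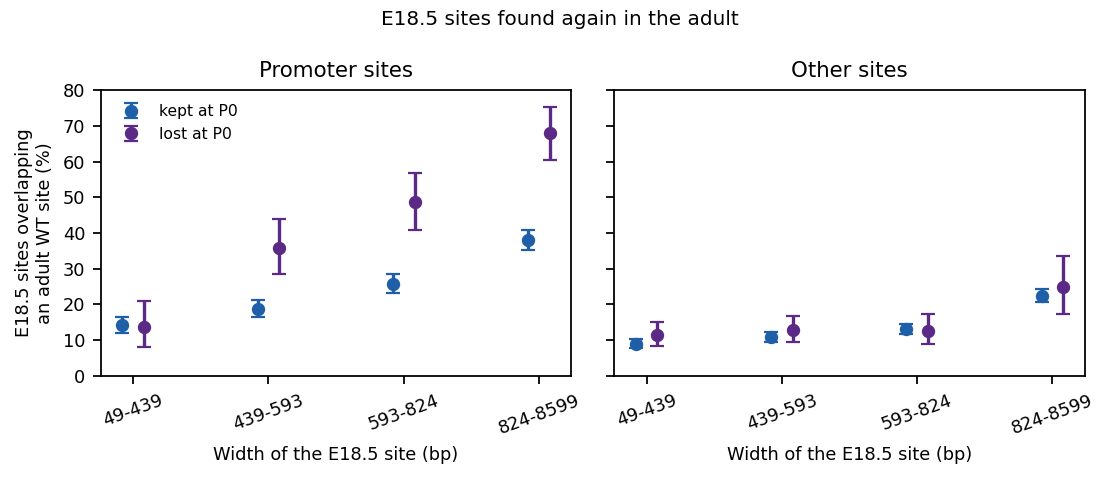
Share of E18.5 sites that overlapped an adult WT site, by width class of the E18.5 site (each class holding an equal part of the list), for sites kept (blue) and lost (purple) at P0, with exact 95% intervals. Lost promoter sites lie above kept ones in each class but the narrowest, up to 68.1% against 38.1%, and other sites do not separate.

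Chromosomes shared the increase unevenly. On the autosomes the P0 list held between 2.48 (chromosome 19) and 3.03 (chromosome 14) times as many sites as the E18.5 list. On the Y chromosome it held 23 against 14 sites (ratio 1.64). On the X chromosome it held 876 against 239 sites, a ratio of 3.67. Of 948 X-linked protein-coding genes 13.8% were targets at E18.5 and 27.5% at P0. The sex of the animals is not given, and its part in the counts on both sex chromosomes was not tested.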

How the data were processed

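The members and gene lists were chosen with earlier results of these data known. Per the labels and methods, the authors ran nf-core/cutandrun (build mm10) and deposited 1 list per MYT1L group, whose values are positions in bp (unit: other) with no count or score. The aligner, the peak caller with its threshold, and the depth were not given in the sources used here. IgG libraries were not analysed here. The labels do not say whether the 3 libraries of a group were separate animals, but the methods give the cells used per animal.

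Overlaps, positions and words were computed with Python 3.11.15, numpy 2.4.6, pandas 2.3.3 and scipy 1.17.1 on GRCm38.p6 with the GENCODE M21 basic annotation, and sequences were taken from the RefSeq release of that assembly (mm10). Scripts were tested on simulated data. Sites counted to a gene within 5 kb of any transcription start of it, so neighbouring genes can share a site. Words were searched on both strands within 75 bp of a site's middle. Named genes were, by bp near starts, the 10 leading kept, gained (in the widest P0 sites), lost and most split genes, and up to 4 kept, gained and lost members of each list. Acvr2a, Bmp2, Bmpr1b, Dcx, Dll1, Gdf11, Hes1, Inhbb, Nog, Pou3f3, Smad2, Smad3, Tbr1 and Zeb2 fell outside this rule and were chosen after their values were seen. Alternatives varied overlap, list length, width, start set, annotation, word and flank.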

Additional observations from a re-analysis of the deposited data

How the results depend on the processing

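Over 16 results and 77 alternatives, 37 values stayed within their counting interval or within 1.5 times their count and 40 moved further. Shares and counts have no sign to reverse, and the AAAGTT excess over flanks, which has one, stayed positive in its alternatives. Matched list length was not among these. There, gained sites held the word in 11.3% against 12.05% of flanks (-0.734 percentage points). The balance of gained over lost genes turned around at matched list length and after even thinning. The kept share of E18.5 sites (88.3%) became 86.7% and 79.5% when 25% or 50% of a site had to be covered, 81.6% by midpoints, 66.7% and 75.3% with the widest P0 sites at matched list length or bp, 33.7% after even thinning, and 86.1% with sites wider than their list's median. The kept share of P0 sites (34.8%) became 34.3%, 33.1%, 33.4%, 68.9%, 63.1% and 33.7% under the same settings other than thinning, and 38.2% or 42.9% with E18.5 sites widened by 250 or 1000 bp. The split share (10.6%) fell to 4.27%, 1.66% and 0.462% with P0 sites closer than 100, 250 or 500 bp joined, and to 4.13% with the widest sites. Gained genes (3923) became 1159, 1584 and 1723 at matched length, matched bp and even thinning, and lost genes (430) became 1729, 1201 and 3344, by construction since P0 sites were removed. Kept genes (6157) became 3337 with sites wider than the median and 3243 after even thinning. Promoter shares of kept and gained sites fell to 31.2% and 14.2% with starts of protein-coding transcripts, and at matched length were 35.6% of kept, 26.8% of gained and 31.9% of lost sites. The excess of AAAGTT over flanks, in percentage points, went from 3.92 to 2.50 at kept sites when A or T had to follow, and from 3.12 to 2.12 under that rule and 1.20 with 250 bp windows at gained sites. At lost sites it went from 3.29 to 1.5 with 250 bp windows (interval -1.25 to 4.25). With the adult HET list, 10.1% of kept, 2.42% of gained and 10.7% of lost sites recurred. For lost sites the adult WT share rose to 32.5% among wider sites and 43.5% at promoters. The comprehensive annotation, other list lengths for genes gained at matched length, and the promoter restriction were chosen after seeing the data. The cause of these shifts was not tested. No paired analysis was possible because each list was merged over its libraries, and for the same reason no replicate could be left out.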
